A study of Homo sapiens with 12 samples.

Results

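The genes described here encode enzymes of cholesterol synthesis and the sterol-sensing protein INSIG1. Of 8 listed genes, HMGCS1, INSIG1, SQLE, IDI1, DHCR7 and ACAT2 had a named probe set on the array, and all 6 passed the filter on low values, among 10613 genes tested of 14884 with a named probe set. FDFT1, squalene synthase, and SC5D, a sterol desaturase, lacked a named probe set and were not analysed here. None of the 8 is an uptake gene. Each gene was represented by 1 probe set, which was also its only named one.

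Total RNA of A431 and HSC-1, which are established human cell lines from squamous cell carcinoma of the skin, was hybridised to 12 Affymetrix arrays. The 4 groups, of 3 arrays each, were A431 in the vehicle DMSO for 72 h, A431 in 100 nM everolimus for 72 h, HSC-1 in DMSO for 72 h and HSC-1 in 100 nM everolimus for 72 h. Everolimus is a rapamycin analogue that inhibits mTOR complex 1, and the title of the study concerns resistance to it. Both lines were grown with 10 or 20% serum, and the labels do not tie a level to a line, so serum and line cannot be told apart. Nothing in the labels says that the 3 arrays of a group are independent cultures, and the p-values then reflect a spread among arrays that may be technical. A difference between A431 and HSC-1 is one between 2 lines, each a single tumour's descendants. In bulk RNA, fewer cells with a transcript and less of it per cell cannot be told apart.

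Cholesterol is built from acetyl-CoA through mevalonate, isoprenoid pyrophosphates, squalene and lanosterol. The enzymes of this route are transcribed under SREBP2, the product of SREBF2, a membrane-bound transcription factor that SCAP escorts from the endoplasmic reticulum to the Golgi for cleavage when sterols are low. INSIG proteins hold SCAP and SREBP in the endoplasmic reticulum when sterols are high, and INSIG1 is itself an SREBP target. mTOR complex 1 is known to promote SREBP activity in many cell types, and keratinocytes make cholesterol for the lipid barrier of the skin.

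Levels are given as deposited, as log2 RMA values, on which a step of 1 is a doubling. Array medians ran from 4.34 to 4.39, and the 6 genes lay above the median of their array on all 12 arrays, with a lowest value of 6.63. The correlation between arrays was 0.989 to 0.992 within groups and 0.955 to 0.962 across the lines. Of 15 squamous keratinocyte markers, 9 had a named probe set, among them the keratins KRT5 and KRT14, and all 9 lay above the array median on every array. In A431, 6 of these 9 fell with everolimus, where 4.33% of all tested genes fell. The mean level of the 9 ran from 9.75 to 9.78 over the A431 DMSO arrays and from 9.52 to 9.55 over the treated ones. In HSC-1, 3 of the 9 rose and 2 fell, where 7.34% of all tested genes rose and 11.3% fell. Of the markers of other cell types with a probe set, 0 of 2 for fibroblasts (7 listed) and 0 of 6 for adipocytes and sebocytes (8 listed) lay above the median on all arrays. So did 2 of 5 for hepatocytes (APOA1 and TTR) and 1 of 3 for leukocytes (the lysosomal protein CD68). On all A431 arrays, however, the fibroblast marker LUM lay above the median (4.84 to 5.04). The adipocyte and sebocyte markers PPARG (6.32 to 6.69) and CIDEA (4.54 to 4.92) did so too. In DMSO, LUM was 4.14-fold and PPARG 3.69-fold lower in HSC-1 than in A431 (limma adjusted p = 4.69e-11 and 1.4e-09), where 30.2% of all tested genes were lower. CD68 fell in A431 (-0.20, limma adjusted p = 0.015) and in HSC-1 (-0.17, limma adjusted p = 0.0184), and the part of these markers in the results was not tested. Levels are compared only within a gene, since probe sets of different genes do not share a scale. Differences carry the moderated standard error (SE) of limma, and a gene was called where the limma p, adjusted by the Benjamini-Hochberg method over all 10613 genes, was under 0.05.

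The effect of everolimus on the 6 genes was tested in each line. In A431, 1 of the 6 fell and 0 rose, where 6.73% of all tested genes were called, 4.33% lower and 2.39% higher. In HSC-1, 2 fell and 1 rose, where 18.6% of all tested genes were called, 11.3% lower and 7.34% higher. The median log2 difference of the 6 was -0.08 in A431, beside -0.0038 over all tested genes, and 0.0092 in HSC-1, beside -0.02 over all tested genes. DHCR7 fell in both lines, ACAT2 fell in HSC-1, and INSIG1 rose in HSC-1, the last call lost in 6 of 22 alternative settings. The largest of these changes was 1.28-fold.

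**Figure D1:**
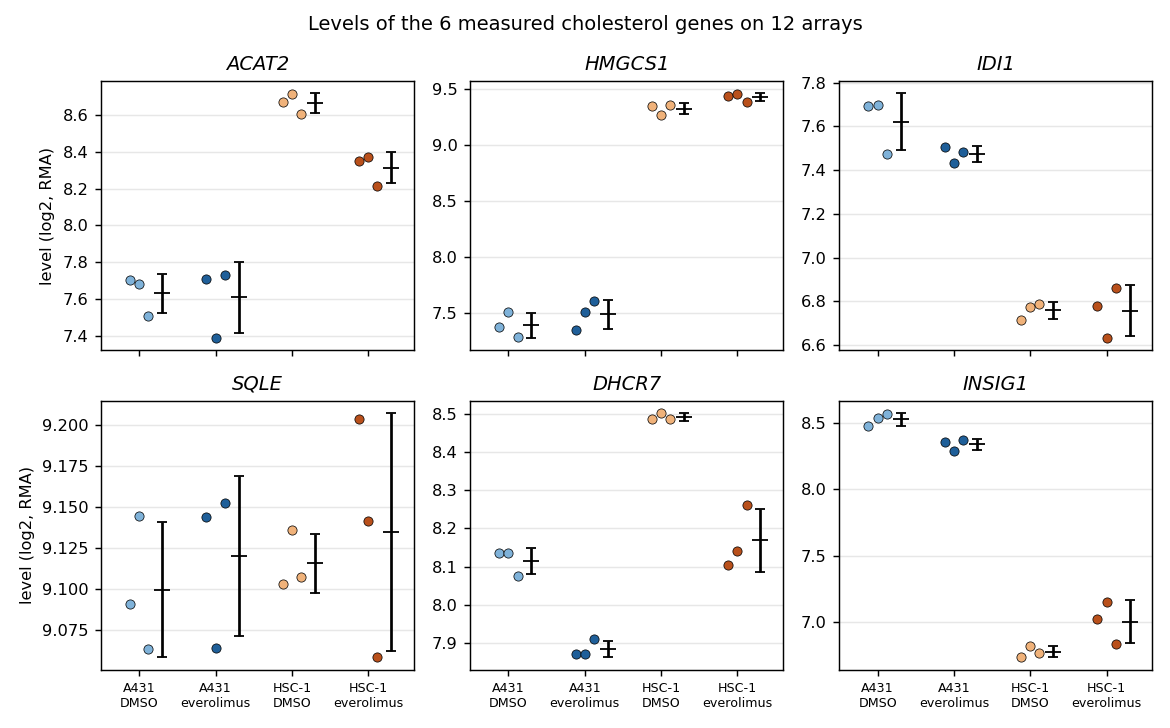
Level (log2, RMA) of the 6 measured genes on each of the 12 arrays, in 4 groups of 3, with the group mean and SD as a bar beside the points; each panel has its own axis, which does not start at 0. HMGCS1 and ACAT2 sit higher and INSIG1 and IDI1 lower in HSC-1, SQLE spans 9.06 to 9.20 over all arrays, and DHCR7 is lower with everolimus in both lines.

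ACAT2 makes acetoacetyl-CoA in the cytosol, the first intermediate of the route. In A431 its levels were 7.70, 7.68 and 7.51 in DMSO and 7.71, 7.39 and 7.73 in everolimus. The groups overlapped, and replicate 2 of the everolimus group was the lowest of the 6 arrays. The difference was -0.022 ± 0.08 (SE; 95% interval -0.19 to 0.14; limma adjusted p = 0.922), and it was positive in 3 of 22 alternative settings, at 0.09 without A431 everolimus replicate 2. In HSC-1 the levels were 8.67, 8.71 and 8.61 in DMSO and 8.35, 8.37 and 8.22 in everolimus. All 3 everolimus arrays lay below all 3 DMSO arrays, as for 19.6% of all tested genes. ACAT2 fell by 0.35 ± 0.08, or 1.28-fold (limma adjusted p = 0.00357). Of all tested genes 4.12% had a lower difference in HSC-1. Subtracting the A431 difference from the HSC-1 difference gave -0.33 ± 0.11 (limma adjusted p = 0.0646), which did not pass. Without A431 everolimus replicate 2 it passed (-0.44, adjusted p = 0.00451), as it did when quantile normalization was applied again (-0.35, adjusted p = 0.0269), in a range up to 0.162 over all 21 alternatives. ACAT2 overlaps TCP1, SOD2 and SOD2-OT1 in the RefSeq gene table, none of which was tested here.

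HMGCS1 condenses acetoacetyl-CoA with acetyl-CoA to HMG-CoA, the precursor of mevalonate. Its levels in A431 were 7.38, 7.50 and 7.28 in DMSO and 7.35, 7.50 and 7.60 in everolimus, and the groups overlapped. In HSC-1 they were 9.34, 9.27 and 9.36 in DMSO and 9.44, 9.45 and 9.38 in everolimus. There the everolimus arrays lay above the DMSO arrays, as they did for 13.7% of all tested genes. The difference was 0.10 ± 0.06 in A431 (95% interval -0.03 to 0.23; limma adjusted p = 0.445) and 0.10 ± 0.06 in HSC-1 (95% interval -0.03 to 0.23; limma adjusted p = 0.31), and neither passed. The difference between these effects was 0.0042, with a 95% interval from -0.18 to 0.19.

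IDI1 interconverts the isopentenyl and dimethylallyl pyrophosphates from which longer isoprenoids are made. In A431 its levels were 7.69, 7.70 and 7.47 in DMSO and 7.51, 7.43 and 7.48 in everolimus, with replicate 3 of DMSO inside the range of the treated arrays. The difference of -0.15 ± 0.07 did not pass (95% interval -0.30 to 0.0023; limma adjusted p = 0.271). In HSC-1 the levels were 6.72, 6.77 and 6.79 in DMSO and 6.78, 6.63 and 6.86 in everolimus. The treated arrays enclosed the DMSO arrays, and the difference was -0.0007 ± 0.07 (95% interval -0.15 to 0.15; limma adjusted p = 0.996). IDI1 overlaps WDR37, which was among the genes tested, and IDI2-AS1, which was not, in the RefSeq gene table. There INSIG1 overlaps INSIG1-DT and LOC105375592, and DHCR7 overlaps DHCR7-DT, none of which was tested. The labels' protocols describe labelled sense cDNA and do not give the probes' strand.

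SQLE, squalene epoxidase, carries out the first oxygenation of the sterol branch. Its 12 values ran from 9.06 to 9.20. In A431 they were 9.09, 9.15 and 9.06 in DMSO and 9.14, 9.06 and 9.15 in everolimus. In HSC-1 they were 9.10, 9.14 and 9.11 in DMSO and 9.20, 9.14 and 9.06 in everolimus. All groups overlapped. The difference was 0.020 ± 0.04 in A431 (95% interval -0.07 to 0.11; limma adjusted p = 0.864) and 0.019 ± 0.04 in HSC-1 (95% interval -0.07 to 0.11; limma adjusted p = 0.825).

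DHCR7 reduces the last double bond on the way to cholesterol. Its levels in A431 were 8.13, 8.14 and 8.08 in DMSO and 7.87, 7.87 and 7.91 in everolimus. In HSC-1 they were 8.49, 8.50 and 8.49 in DMSO and 8.10, 8.14 and 8.26 in everolimus. The treated arrays lay below the DMSO arrays in both lines, as for 13.5% of all tested genes in A431 and 19.6% in HSC-1. DHCR7 fell by 0.23 ± 0.05 in A431, or 1.17-fold (limma adjusted p = 0.00557), and by 0.32 ± 0.05 in HSC-1, or 1.25-fold (limma adjusted p = 0.000117). Both calls held in all 22 alternative settings, with adjusted p up to 0.0383 in A431 and 0.00292 in HSC-1. Between the lines the effects differed by -0.09 ± 0.07 (95% interval -0.23 to 0.05; limma adjusted p = 0.472), which did not pass. Of all tested genes, 7.15% had a lower difference in A431 and 5.3% in HSC-1.

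INSIG1, the sterol-dependent anchor of SCAP, was the 1 gene of the 6 for which the difference between the lines' everolimus effects passed the test. In A431 its levels were 8.48, 8.54 and 8.57 in DMSO and 8.36, 8.29 and 8.37 in everolimus, without overlap, where 13.5% of all tested genes lay lower in the same way. The A431 difference of -0.19 ± 0.07 did not pass (limma adjusted p = 0.103). It passed in a fit on the 6 A431 arrays alone (adjusted p = 0.0303) and without HSC-1 everolimus replicate 3 (adjusted p = 0.0296), in a range up to 0.29 over all 22 alternatives. In HSC-1 the levels were 6.73, 6.82 and 6.77 in DMSO and 7.02, 7.15 and 6.83 in everolimus. The treated arrays lay above the DMSO arrays, as for 13.7% of all tested genes, with replicate 3 nearest to the DMSO arrays. INSIG1 rose there by 0.23 ± 0.07, or 1.17-fold (limma adjusted p = 0.0219). This call was lost in 6 of 22 alternatives, which were no intensity trend (0.0635), a fit on the 6 HSC-1 arrays alone (0.0754), and fits without HSC-1 DMSO replicate 1 (0.0811) or 3 (0.0578) or HSC-1 everolimus replicate 1 (0.0608) or 2 (0.136). The HSC-1 effect exceeded the A431 effect by 0.42 ± 0.09 (95% interval 0.22 to 0.62; limma adjusted p = 0.00724), where 10.5% of all tested genes were called, 4.84% with a higher and 5.69% with a lower effect in HSC-1. That call held in all 21 alternatives, with adjusted p from 0.000394 to 0.0364. In the same comparison 6 of the 9 squamous keratinocyte markers had a higher effect in HSC-1 and 0 a lower one (median 0.27), and their part in the INSIG1 difference was not tested.

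**Figure D2:**
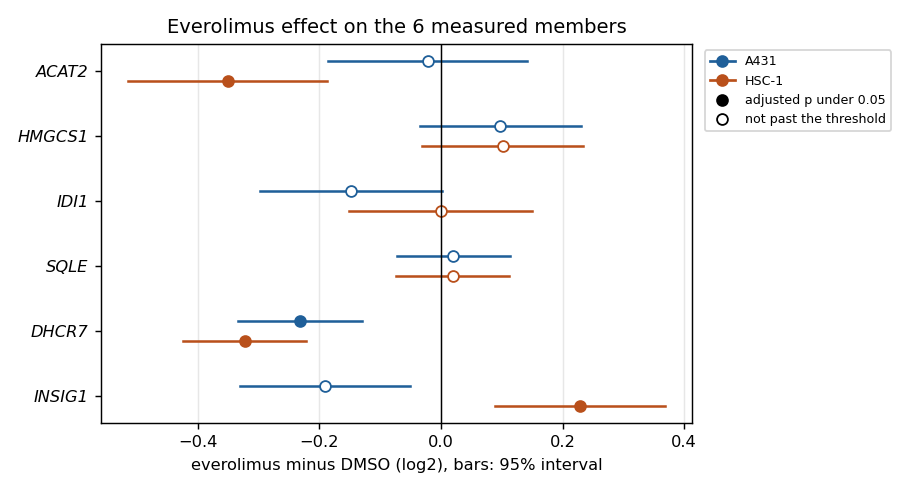
Everolimus minus DMSO (log2) for the 6 measured genes in A431 and HSC-1, with 95% intervals; filled points passed an adjusted p of 0.05. DHCR7 lies below 0 in both lines, ACAT2 is separated from 0 in HSC-1, and INSIG1 lies at -0.19 in A431 and 0.23 in HSC-1.

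The lines themselves differed more widely. In DMSO, 5 of the 6 genes differed between HSC-1 and A431, 3 higher and 2 lower in HSC-1, where 59.4% of all tested genes were called, 29.2% higher and 30.2% lower. HMGCS1 was 3.83-fold higher in HSC-1 (1.94 ± 0.06, limma adjusted p = 5.68e-15), and 98.7% of tested genes had a lower difference. ACAT2 was 2.05-fold higher (1.03 ± 0.08, limma adjusted p = 1.11e-09) and DHCR7 1.30-fold higher (0.38 ± 0.05, limma adjusted p = 1.5e-06). INSIG1 was 3.38-fold lower in HSC-1 (-1.76 ± 0.07, limma adjusted p = 5.1e-14), and 1.71% of tested genes had a lower difference. IDI1 was 1.82-fold lower (-0.86 ± 0.07, limma adjusted p = 4.21e-09). These 5 calls held in all 22 alternatives. SQLE differed by 0.016 ± 0.04 (95% interval -0.08 to 0.11; limma adjusted p = 0.784), which did not pass. For the other 5 genes the DMSO arrays of the lines did not overlap, as for 32.3% of all tested genes higher and 32.9% lower in HSC-1.

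With everolimus the fold between the lines was 2.53 for INSIG1, against 3.38 in DMSO, and 1.63 for ACAT2, against 2.05. It was 3.84 for HMGCS1, against 3.83. HMGCS1 and ACAT2 were lowest in A431 in both treatments, and the A431 groups overlapped for each. INSIG1 was highest in A431 in DMSO, then A431 in everolimus, HSC-1 in everolimus and HSC-1 in DMSO, and no neighbouring groups overlapped. IDI1 was higher in A431 than in HSC-1 in both treatments, and the treated and untreated groups overlapped in each line. DHCR7 was highest in HSC-1 in DMSO and lowest in A431 in everolimus, and HSC-1 in everolimus (8.10 to 8.26) overlapped A431 in DMSO (8.08 to 8.14) between them. The 4 groups overlapped for SQLE.

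**Figure D3:**
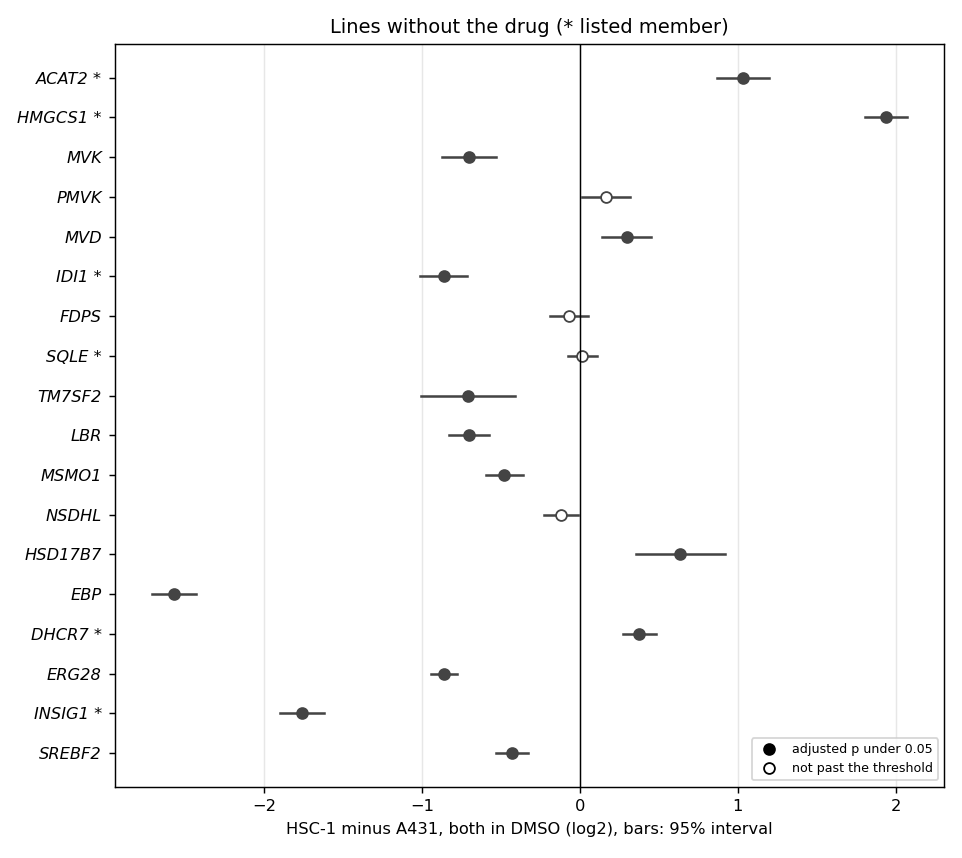
HSC-1 minus A431, both in DMSO (log2), for the tested synthesis genes from early to late steps, then INSIG1 and SREBF2, with 95% intervals; filled points passed an adjusted p of 0.05. HMGCS1 at 1.94 and EBP at -2.57 are the extremes, and SQLE lies at 0.016.

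After the mean of its line was taken from each level, the correlation between pairs of the 6 genes over 12 arrays ran from -0.51 for HMGCS1 with DHCR7 to 0.64 for DHCR7 with ACAT2. These points share their arrays and the treatment groups. The 5 tested genes, members apart, most like the mean of the 6, on the same line-centred values over 12 arrays, were RIPK3 (Pearson correlation 0.94), DPY30 (0.93), STING1 (0.93), CPPED1 (0.91) and TRIM6-TRIM34 (0.90). None of these 5 passed the threshold in either line, and 1.04% of tested genes had a correlation above 0.8 with that mean. The 6 genes themselves followed their mean less closely. Their correlations with it were -0.013 for HMGCS1, 0.19 for INSIG1, 0.41 for SQLE, 0.59 for IDI1, 0.64 for DHCR7 and 0.72 for ACAT2.

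Promoter windows from the RefSeq table of build GRCh38.p14 are shown for INSIG1, DHCR7 and HMGCS1, the genes with the effect that differed between lines, the fall in both lines and the largest line difference. Each is the stretch of 250 bases before the first listed start, read 5′ to 3′ on the gene's own strand, with capitals on matches to CCAAT, the box bound by NF-Y, in either direction (ATTGG on the printed strand is the reverse match). They lie at chr7:155297628-155297877 (plus strand), chr11:71448394-71448643 (minus strand) and chr5:43313413-43313662 (minus strand).
INSIG1: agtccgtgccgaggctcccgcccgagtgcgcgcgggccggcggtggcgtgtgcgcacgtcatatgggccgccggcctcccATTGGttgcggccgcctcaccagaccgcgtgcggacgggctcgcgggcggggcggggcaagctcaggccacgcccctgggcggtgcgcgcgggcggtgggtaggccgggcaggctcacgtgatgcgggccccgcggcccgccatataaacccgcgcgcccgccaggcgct
DHCR7: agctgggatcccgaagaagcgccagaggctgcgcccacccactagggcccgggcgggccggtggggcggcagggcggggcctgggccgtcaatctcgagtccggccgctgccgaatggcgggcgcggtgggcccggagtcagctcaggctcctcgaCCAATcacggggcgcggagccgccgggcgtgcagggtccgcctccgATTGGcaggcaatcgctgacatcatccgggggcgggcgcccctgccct
HMGCS1: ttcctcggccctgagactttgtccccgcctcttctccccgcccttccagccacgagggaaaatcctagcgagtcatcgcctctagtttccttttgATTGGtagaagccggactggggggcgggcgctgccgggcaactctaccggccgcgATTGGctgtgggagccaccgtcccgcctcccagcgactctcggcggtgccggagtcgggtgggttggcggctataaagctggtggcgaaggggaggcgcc
On both strands of the full 300-base windows, CCAAT matched 1 time for INSIG1, 2 times for DHCR7 and 2 times for HMGCS1, and 34.6% of all 35116 windows of the table held it. GGGCGG, the GC box bound by Sp1, matched 6, 4 and 2 times, with 2 of the INSIG1 matches sharing a base, and 45% of all windows held it. TCACNCC, a core of the sterol regulatory element, matched 0, 0 and 1 times, the last lying after the start and so outside the printed stretch, and 15.5% of all windows held it. HMGCS1 and DHCR7 have 2 windows each in the table, and the counts above and the printed stretches are of the first. The second HMGCS1 window held TCACNCC 1 time, before the start, CCAAT 0 times and GGGCGG 2 times, and the second DHCR7 window held none of the 3 motifs.

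Of 15 further genes on the route from acetyl-CoA to cholesterol, 11 were tested. In A431, 1 of the 11 fell and 0 rose (median log2 difference -0.04), where 4.33% of all tested genes fell and 2.39% rose. In HSC-1, 3 fell and 1 rose (median -0.07), where 11.3% of all tested genes fell and 7.34% rose. ERG28, a scaffold that holds sterol demethylation enzymes together, fell by 0.21 ± 0.04 in A431 (limma adjusted p = 0.00245) and by 0.13 ± 0.04 in HSC-1 (limma adjusted p = 0.0251). LBR, a sterol reductase that also binds lamin, fell by 0.23 ± 0.06 in HSC-1 (limma adjusted p = 0.014), and FDPS, farnesyl pyrophosphate synthase, fell by 0.17 ± 0.06 (limma adjusted p = 0.0496). The FDPS call was lost in 19 of 22 alternatives, at up to 0.256 with the mean of its probe sets. The HSC-1 calls of ERG28 and LBR were lost in 4 and 3 of 22, at up to 0.123 and 0.0708. EBP, the sterol isomerase, rose by 0.26 ± 0.07 in HSC-1 (limma adjusted p = 0.0104, lost of 22 alternatives only in the fit on the 6 HSC-1 arrays, at 0.0754). In DMSO, EBP was 5.93-fold lower in HSC-1 than in A431 (-2.57 ± 0.07, limma adjusted p = 2.46e-16). MSMO1, the sterol methyl oxidase, had differences of -0.15 ± 0.06 in A431 (adjusted p = 0.134) and 0.0033 ± 0.06 in HSC-1 (adjusted p = 0.976), both in limma. LSS and CYP51A1, which make and demethylate lanosterol, were not analysed here.

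**Figure D4:**
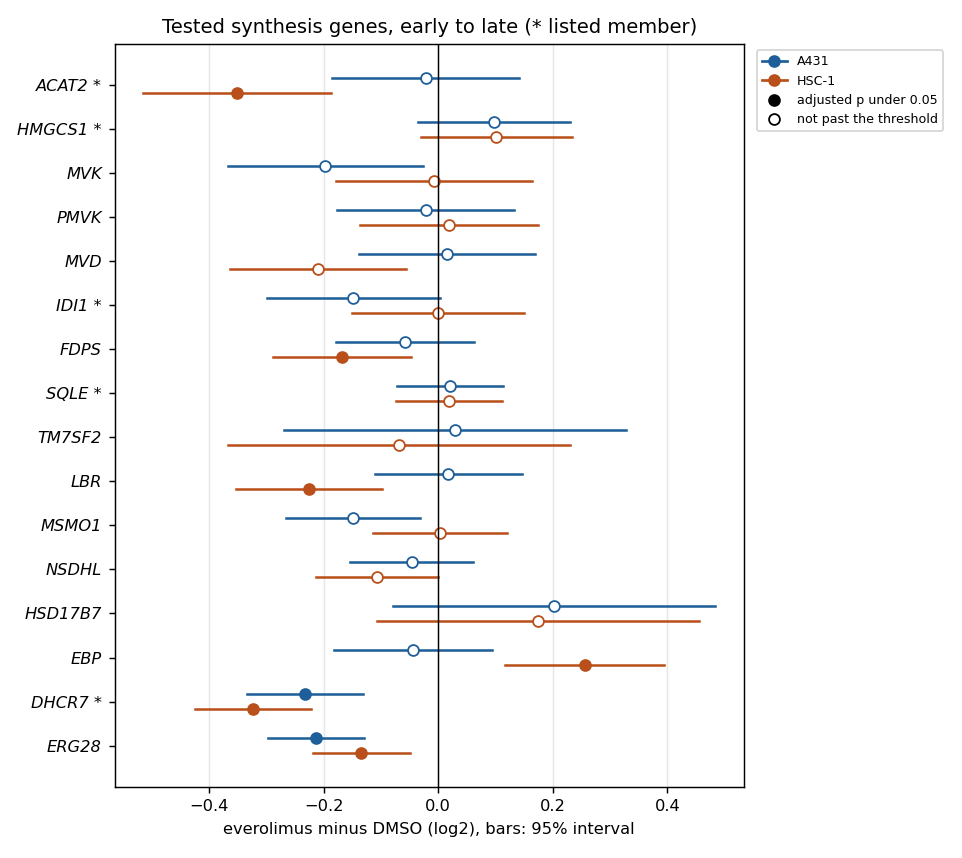
Everolimus minus DMSO (log2) in A431 and HSC-1 for the 16 tested synthesis genes in the order of the route, with ERG28 last and 95% intervals; filled points passed an adjusted p of 0.05 and stars mark the listed genes. DHCR7 and ERG28 are filled in both lines, and EBP is the 1 gene filled to the right of 0.

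Of 8 tested genes of sterol sensing and SREBP processing, which include INSIG1, 0 were called in A431, and 2 rose and 2 fell in HSC-1. Over all tested genes, 6.73% were called in A431, and 7.34% rose and 11.3% fell in HSC-1. SREBF2 rose by 0.21 ± 0.05 in HSC-1 (limma adjusted p = 0.00516), from 7.97, 7.99 and 7.98 to 8.12, 8.18 and 8.27. Its A431 difference was 0.04 ± 0.05 (limma adjusted p = 0.735), and the effects differed by 0.17 ± 0.07, which did not pass (limma adjusted p = 0.136). RNF145, a ubiquitin ligase for SCAP, fell by 0.19 ± 0.06 in HSC-1 (limma adjusted p = 0.0326, lost in 7 of 22 alternatives, at up to 0.119). VCP, the segregase that extracts ubiquitinated proteins from the endoplasmic reticulum, fell by 0.24 ± 0.04 (limma adjusted p = 0.000744). INSIG2, the paralogue of INSIG1, had differences of -0.08 in A431 and 0.08 in HSC-1, with limma adjusted p of 0.599 and 0.523. SREBF2 was 1.35-fold lower in HSC-1 than in A431 in DMSO (limma adjusted p = 2.48e-07).

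Of 10 tested genes of cholesterol uptake and intracellular transport, 0 were called in A431, and 1 rose and 1 fell in HSC-1. The shares over all tested genes were 6.73% called in A431, and 7.34% higher and 11.3% lower in HSC-1. OSBPL1A, an oxysterol-binding protein of late endosomes, rose by 0.50 ± 0.07 in HSC-1, or 1.41-fold (limma adjusted p = 4.96e-05), and its A431 difference was -0.15 ± 0.07 (limma adjusted p = 0.227). TMEM97, which binds the lysosomal cholesterol exporter NPC1, fell by 0.26 ± 0.06 in HSC-1 (limma adjusted p = 0.00727), a call lost without HSC-1 DMSO replicate 2 (0.0538), and had a difference of 0.11 ± 0.06 in A431 (limma adjusted p = 0.398). APOE, the 1 tested gene of 9 on the efflux and LXR list, had differences of -0.19 in A431 (limma adjusted p = 0.395) and 0.12 in HSC-1 (limma adjusted p = 0.549).

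Among 5 esterification genes, 1 fell in A431 and 3 in HSC-1, where 4.33% and 11.3% of all tested genes fell. NCEH1, which hydrolyses cholesterol esters, fell in both lines. Its levels were 8.10, 8.01 and 7.95 in A431 in DMSO and 7.64, 7.65 and 7.67 in everolimus, and 7.11, 7.04 and 7.07 in HSC-1 in DMSO and 6.44, 6.33 and 6.08 in everolimus. The fall was 0.37 ± 0.07 in A431, or 1.29-fold (limma adjusted p = 0.00458), and 0.79 ± 0.07 in HSC-1, or 1.73-fold (limma adjusted p = 7.04e-07). Neither pair of groups overlapped, where 13.5% of all tested genes lay lower in the same way in A431 and 19.6% in HSC-1. In HSC-1, SOAT1, which makes cholesterol esters, fell by 0.25 ± 0.08 (limma adjusted p = 0.0266, lost in 5 of 22 alternatives, at up to 0.133). CES1, a carboxylesterase, fell by 0.40 ± 0.13 (limma adjusted p = 0.0375), a call lost in 10 of 22 alternatives, with a difference of -0.12 for the mean of its probe sets (adjusted p = 0.476). Of 13 listed genes of other mevalonate products, 4 were tested. In A431, 0 of the 4 were called, where 6.73% of all tested genes were. In HSC-1, 3 fell, where 11.3% of all tested genes fell. These 3 were NUS1 (-0.26 ± 0.06) and DHDDS (-0.22 ± 0.07), which together make dolichol chains, and ICMT (-0.19 ± 0.04), which methylates prenylated proteins. The DHDDS call (limma adjusted p = 0.0321) was lost in 6 of 22 alternatives, at up to 0.128.

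Across the 7 cholesterol lists, 44 genes were tested of 80. In A431, 3 of the 44 fell and 0 rose, where 6.73% of all tested genes were called. In HSC-1, 14 fell and 4 rose, where 18.6% of all tested genes were called, 11.3% lower and 7.34% higher. The fatty acid synthesis genes, which SREBP1 is known to drive, are given for comparison. Of 16 tested, 5 fell and 0 rose in A431 (median -0.15), where 4.33% of all tested genes fell, and 4 fell and 0 rose in HSC-1 (median -0.06), where 11.3% fell. SREBF1 itself fell in both lines, from 7.62, 7.60 and 7.61 to 7.07, 7.12 and 6.94 in A431 and from 6.11, 6.15 and 6.12 to 5.88, 5.90 and 5.81 in HSC-1. The others that fell were SCD, FASN, ACSS2 and ACSL1 in A431 and ELOVL6, ACLY and ELOVL1 in HSC-1, the last call lost in 6 of 22 alternatives (limma adjusted p up to 0.154). In DMSO, 12 of the 16 were lower and 4 higher in HSC-1 than in A431, with a median of -0.69. Over all tested genes, 59.4% were called between the lines, 30.2% lower and 29.2% higher in HSC-1, with a median of 0.0048. In the same comparison the median was 0.20 for the 6 members, -0.48 for the 11 other synthesis genes (6 lower, 2 higher) and -0.15 for the 44 genes of the cholesterol lists (22 lower, 12 higher).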

How the data were processed

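The authors deposited 1 table of log2 values, and the submitters' processing notes name RMA and Affymetrix Expression Console. The sources used here give no version, probe set level or genome build. RMA equalises the arrays' distributions, which removes any shift shared by all genes. Of 53617 probe sets, 16098 carried 1 gene symbol, 0 several, and 37519 are unnamed here. All 16098 matched the RefSeq gene table by Entrez identifier.

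The probe set with the highest mean represented each gene, which was tested where at least 3 of 12 arrays lay above the array's median. Group means over all 12 arrays were fitted with lmFit and eBayes (intensity trend, 8 residual degrees of freedom) in limma 3.58.1 under R 4.3.3, with Benjamini-Hochberg adjustment. The procedure was tested on simulated data. The number of arrays limits the precision, and the labels name no batch. Members and lists were chosen with earlier results of these data known. Named were the members, every gene of the cholesterol and fatty acid lists past the threshold in an everolimus contrast, fixed pathway genes and the 5 most alike. The 22 alternatives covered a replicate block, level filters, variance priors, array weights, normalization, probe set choice, fits on only the 6 arrays a comparison is about and leaving out each array.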

Additional observations from a re-analysis of the deposited data

Results flagged for a closer look

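INSIG1 was flagged because its everolimus effect in HSC-1 differed from that in A431, by 0.42 ± 0.09 on the log2 scale (limma adjusted p = 0.00724). Of the other genes named, 11 differed in the same test. Over all tested genes 10.5% were called in it, 4.84% with a higher and 5.69% with a lower effect in HSC-1. The 11 were taken only from pathway genes already called for everolimus in at least 1 line. Those calls use the same arrays, so the number that differed is not an independent result. The HSC-1 effect was higher for OSBPL1A by 0.65 (limma adjusted p = 0.000241) and for EBP by 0.30 (0.0469), and lower for TMEM97 by a difference of -0.36 (0.0127), NCEH1 by -0.42 (0.0143) and ICMT by -0.31 (0.0025). Among the fatty acid genes it was higher for ACSL1 by 0.97 (limma adjusted p = 6.07e-05), FASN by 0.52 (3.23e-05), SCD by 0.45 (0.000334), ACSS2 by 0.42 (0.0201) and SREBF1 by 0.30 (0.0454), and lower for ELOVL6, with a difference of -0.56 (0.00495). The EBP and SREBF1 calls were each lost in 14 of 21 alternatives, at up to 0.122 and 0.11, and the ACSS2 call in 4 of 21, at up to 0.0631. Of the 9 squamous keratinocyte markers, 6 also had a higher effect in HSC-1 (median difference 0.27). With groups of 3 arrays no test for a single outlying array was made.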

How the results depend on the processing

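Over the 22 alternatives (21 for the difference between the lines' effects), the 24 values of the 6 members gave 522 results, of which 491 kept direction and call, 6 lost a call, 4 gained one and 21 changed sign. The 21 that changed sign passed neither before nor after. With quantile normalization applied again the difference of effects for HMGCS1 was -0.002, and with array weights that for SQLE was 0.010. Leaving out 1 array moved ACAT2 in A431 between -0.083 and 0.0885, the line difference of SQLE between -0.0023 and 0.0385, the difference of effects between -0.0638 and 0.0626 for HMGCS1 and between -0.0358 and 0.0367 for SQLE, and in HSC-1 IDI1 between -0.0521 and 0.0621 and SQLE between -0.0154 and 0.0571. Genes called in A431 numbered 714, and 438 without the intensity trend. Leaving out 1 array gave 456 (without A431 DMSO replicate 2) to 836 in A431, 1405 to 2032 in HSC-1, 879 to 1161 for the difference of effects and 5922 to 6364 between the lines. The members called were then 1 to 2, 2 to 3, 1 to 2 and 5. The fit on the 6 A431 arrays alone called 2 members, and quantile normalization called 2 for the difference of effects. The replicate numbers share no stated source, and arrays of the same number correlated at -0.155 to 0.018 in their deviations from group means, with 1 of 6 closest to its own number. A replicate block left 1 member called in A431, 3 in HSC-1, 1 for the difference of effects and 5 between the lines, and moved no count of genes called by over 1.5 times. Without detection flags, levels were judged against the array median only.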
